A study of Mus musculus with 15 samples.

Results

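Islet RNA of 6 libraries from mice with a human IAPP transgene was compared with that of 6 libraries without it. The 12 libraries were chosen by group label from the 15 of the series, and the comparison is the human IAPP term of a model that also carries a term for human CAST. The groups were WT, hCAST (human CAST under the insulin II promoter), hIAPP (human IAPP under the insulin II promoter) and hIAPP_hCAST (both transgenes, with the CAST transgene under an insulin promoter), with 3 libraries each. All were bulk pancreatic islets of FVB/NJ mice aged 9 to 10 weeks, and the sources used here did not give sex, line, copy number or litter. The transgenes sit behind a beta cell promoter, so WT and hCAST mice lack the IAPP transgene but carry their own mouse Iapp. The remaining 3 libraries, from mice with a rodent IAPP transgene under the insulin II promoter (rIAPP), enter only where the human and the rodent transgene are set side by side. Each group is named with its labels, the numbers 1 to 3 follow accession order, and p-values measure the spread between these libraries.

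IAPP, islet amyloid polypeptide or amylin, is a small hormone that beta cells store and secrete with insulin. The human peptide can assemble into toxic oligomers and amyloid fibrils, as found in islets of people with type 2 diabetes, while the mouse and rat peptides do not form amyloid. Calpastatin, the product of CAST, is the natural inhibitor of the calpain proteases. Resident islet macrophages take up material released by beta cells, and in other tissues macrophages that clear lipid or protein aggregates turn on a set of lysosomal and lipid-handling genes led by Trem2, Apoe and Gpnmb.

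Counts outside 3 genes that collect ribosomal reads (Rn45s, Lars2 and Mir6236) ranged from 1667190 in WT 2 to 40062153 in hIAPP_hCAST 3. These 3 genes held 94.3% of all counts in WT 2, 68.9% in WT 3 and at most 9.40% in the other 10 libraries, and they were left out of the scaling. Acinar genes, which encode digestive enzymes of the exocrine pancreas, held 1.30% of the remaining counts in hIAPP_hCAST 3, 8.04% to 16.2% in the other 5 libraries with human IAPP and 1.99% to 11.1% in the 6 without. The hIAPP_hCAST 3 library lay beside the libraries without human IAPP on the first principal component. Counts of calls are therefore also given without WT 2 and WT 3 and without hIAPP_hCAST 3. In bulk RNA, fewer cells of a type and less RNA per cell cannot be told apart. Human transgene reads were not analysed here, so the transgene labels were not checked by the transgene itself.

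Of 15421 genes tested, 631 were higher with human IAPP (4.09%) and 479 were lower (3.11%), 1110 in all (7.2%), at an adjusted p below 0.05 in edgeR's quasi-likelihood test. Large changes were mostly rises: 191 genes rose and 39 fell by more than 2-fold, and 33 rose and 4 fell by more than 4-fold. In 619 of all tested genes (4.01%) the 6 libraries with human IAPP did not overlap the 6 without, lying above in 334 (2.17%) and below in 285 (1.85%), and 487 of the 1110 called genes (43.9%) had this property. With scaling by library size alone, 811 genes were called higher and 188 lower, a share of 81.2% higher against 56.8% with the scaling used, and that scaling moved the median log2 fold change of all genes from 0.01 to 0.06. The count fell to 414 without WT 2 and WT 3 and grew to 2081 without hIAPP_hCAST 3. Leaving out 1 library gave 520 without WT 1, 566 without WT 3, 730 and 635 without hCAST 1 and 2, and 658, 650 and 674 without hIAPP 1, 2 and 3. Without hIAPP_hCAST 3, 1247 of 15611 tested genes were higher and 834 lower, and in DESeq2 1036 and 860 of 15421 were. Gene list counts given below for these settings are to be read against these totals. The title numbers of the mice with human IAPP form a range apart from those without, so what goes with those numbers cannot be told apart from the transgene. The human CAST term called 6 genes (0.0389%), and 1225 had an unadjusted p below 0.05.

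The largest change was in Sema5a, which encodes a transmembrane semaphorin, a guidance cue with thrombospondin repeats. Its level was 757 CPM (counts scaled to library size) in the lowest, 768 in the median and 883 in the highest library with human IAPP. Without human IAPP the level was 14.5, 17.1 and 24.5 CPM. Every library carrying the transgene thus stood far above every other library, with a log2 fold change of 5.54 ± 0.10 (SE) and an adjusted p of 1.42e-14. The gene lies at chr15:32244813-32696341 (RefSeq, GRCm38.p6, forward strand). The next transcript upstream, the long noncoding RNA Snhg18 at chr15:32240568-32244662, lies 150 bases away on the opposite strand. Snhg18 rose by 4.03 ± 0.08 on the log2 scale, from 6.96, 8.77 and 10.7 CPM (lowest, median, highest) to 126, 135 and 161. The small nucleolar RNA Snord123, inside Snhg18, was at 0 to 0.158 CPM without and 0.869 to 1.66 CPM with human IAPP, and its 118 counts in hIAPP against 2 in WT gave a depth-adjusted ratio of 23.7 (95% interval 6.42 to 198, counting error only).

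Both start sites share the promoter window of Sema5a, shown because the genes on both sides of it had the 2 smallest p of all genes. It is RefSeq's 300 bases at chr15:32244563-32244862 on the forward strand, and the capitals mark the 150 bases between the start of Snhg18 and that of Sema5a:

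Sema5a: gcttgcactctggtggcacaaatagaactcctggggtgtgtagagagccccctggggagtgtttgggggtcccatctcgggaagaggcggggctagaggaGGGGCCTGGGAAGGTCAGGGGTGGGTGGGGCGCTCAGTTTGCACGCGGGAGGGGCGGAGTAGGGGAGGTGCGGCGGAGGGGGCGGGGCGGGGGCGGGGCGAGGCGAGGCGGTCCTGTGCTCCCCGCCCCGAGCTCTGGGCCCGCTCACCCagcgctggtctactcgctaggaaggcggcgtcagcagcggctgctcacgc

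Genes near Sema5a were called more often than genes farther along the chromosome. Within 2 megabases of Sema5a, 9 of the other 22 tested genes were called (40.9%), 3 higher and 6 lower. The share was 5.0% of 20 genes between 2 and 5 megabases, 8.7% of 23 between 5 and 10, and 8.13% of 541 beyond. Besides Snhg18 and Snord123, the third riser was Cct5, a subunit of the TRiC chaperonin, at 206 to 223 CPM without and 253 to 335 CPM with human IAPP (log2 fold change 0.34 ± 0.07). On the lower side were Cmbl, a carboxymethylenebutenolidase homolog, by -0.98 ± 0.13, Ankrd33b by -0.58 ± 0.08, the heparan sulfate proteoglycan Sdc2 by -0.39 ± 0.06 and the plasma carboxypeptidase Cpq by -0.61 ± 0.05. Cpq, at 77.8, 85.8 and 93.8 CPM with and 123, 131 and 138 CPM without human IAPP, had the fourth smallest p of all genes, after Sema5a, Snhg18 and Osbpl1a. Tspyl5 (-0.44 ± 0.11) and the lysosomal membrane protein Laptm4b (-0.31 ± 0.08) completed the 6, with smaller differences that were lost on leaving out any of 5 and 4 single libraries respectively. These neighbours were singled out after their values were seen.

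**Figure D1:**
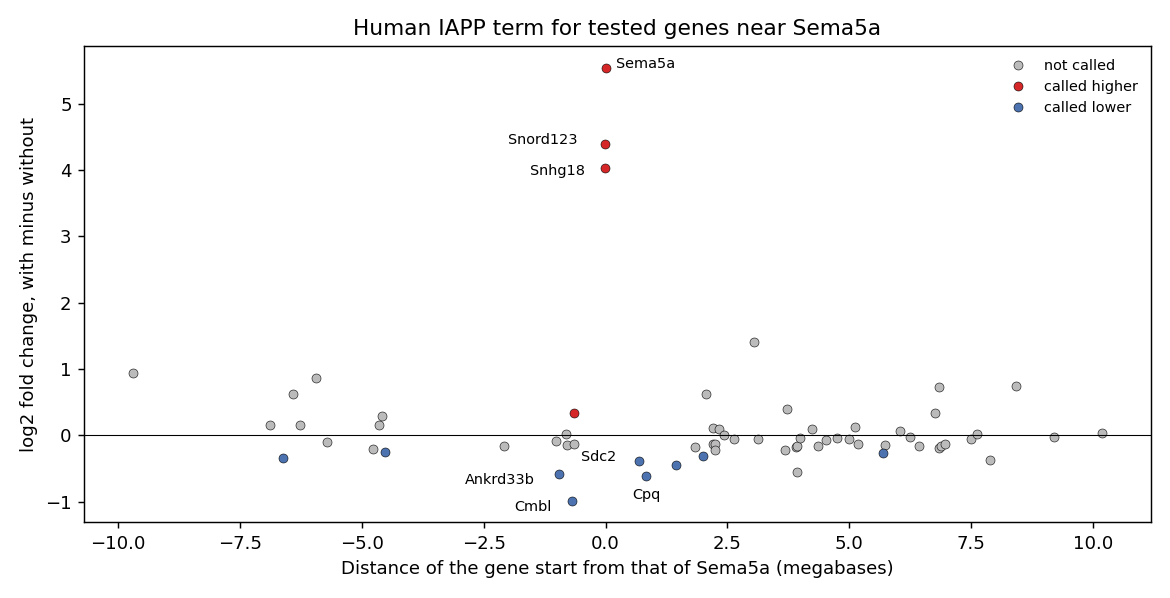
Log2 fold change of the human IAPP term (vertical axis, with minus without) against the distance of each tested gene's start from that of Sema5a in megabases (horizontal axis). Each point is a gene, red where called higher, blue where called lower and grey where not called. Sema5a, Snhg18 and Snord123 stand above 4 at the centre, and the called genes within 2 megabases on either side are mostly lower.

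Osbpl1a, an oxysterol-binding protein homolog that tethers late endosomes, was also among the largest rises. Its level was 32.2, 39.5 and 48.2 CPM (lowest, median, highest) with human IAPP and 3.14, 5.32 and 6.21 without. The difference was 2.90 ± 0.10 on the log2 scale (adjusted p = 5.94e-11), and the groups did not overlap.

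Many of the other large rises were genes known from macrophages and related myeloid cells. Lyz2, the lysozyme of myeloid cells, was at 60.7, 164 and 252 CPM (lowest, median, highest) with human IAPP and at 11.9, 16.1 and 18.1 CPM without (log2 fold change 3.10 ± 0.34, adjusted p = 0.00102). Cd84, a self-ligand receptor of the SLAM family, rose by 2.60 ± 0.25 and Fcrls, an Fc receptor-like gene of resident macrophages, by 3.54 ± 0.39. Bcl2a1b, a prosurvival BCL2 relative, rose by 2.47 ± 0.24, although near-identical Bcl2a1 copies make its counts uncertain. Cd4, which marks helper T cells and is also carried by some macrophages, rose by 2.80 ± 0.33 from at most 0.369 CPM to at least 1.01 CPM. Csf3r, the G-CSF receptor of neutrophils and monocytes, rose by 2.30 ± 0.31. None of these 6 lost its call when any single library was left out, a stability favoured by the rule that chose them as called and without overlap.

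Of 21 tested genes in a list of macrophage markers, 17 were higher, 0 were lower and 4 did not pass, with a median log2 fold change of 1.13 against 0.01 over all tested genes. The summed level of the list was 386, 671 and 965 CPM (lowest, median, highest) with human IAPP and 180, 257 and 276 CPM without, so the arms did not overlap. The phagocyte markers Cd68 (1.83 ± 0.25), Ms4a7 (1.58 ± 0.19), the fractalkine receptor Cx3cr1 (1.74 ± 0.24) and the integrin Itgam (1.11 ± 0.16) separated all 6 from 6. Csf1r, the receptor for the growth factor that macrophages depend on, was at 20.4 to 43.8 CPM with and 13.2 to 15.7 CPM without human IAPP (1.06 ± 0.15). The members that did not pass included the scavenger and mannose receptors Cd163 (-0.40 ± 0.74, at most 0.552 CPM in any library) and Mrc1 (0.27 ± 0.16), markers of tissue-repair macrophages. The list's count was 13 without WT 2 and WT 3 and 15 to 18 when each library was left out in turn. Within the group of 6, the summed level was lowest in hIAPP_hCAST 3, the library with the smallest acinar share. With the mean log2 CPM of the acinar genes as a covariate, 18 members were called higher, as were 860 of all 15421 tested genes.

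A list of genes of lipid-associated, lysosome-rich macrophages held 11 higher and 0 lower of 20 tested, with a median of 0.77. Trem2, the lipid and amyloid receptor of these cells, was at 3.59, 8.44 and 13.0 CPM (lowest, median, highest) with human IAPP and at 0.627, 1.26 and 1.66 CPM without (2.48 ± 0.28, adjusted p = 0.000349). Apoe, the lipid carrier that also binds amyloid, was far more abundant at 658 to 1660 CPM with and 329 to 469 CPM without (1.60 ± 0.18). Gpnmb, a transmembrane glycoprotein induced by lysosomal stress, rose by 2.96 ± 0.51, the beta-glucan receptor Clec7a by 1.89 ± 0.27 and the engulfment receptor kinase Axl by 0.69 ± 0.10. Acp5, the tartrate-resistant acid phosphatase named among the largest rises and no member of the list, rose by 1.84 ± 0.25. The vacuolar ATPase subunit Atp6v0d2 was nearly undetected without human IAPP, with 3 counts in the 3 WT libraries against 359 in hIAPP. The depth-adjusted ratio was 48.1 (95% interval 16.3 to 234, counting error only). Cst7, which encodes an inhibitor of lysosomal cysteine proteases, had 3 counts in WT and 188 in hIAPP (ratio 25.2, 8.49 to 123, counting error only). Its level was 4.30 CPM in hIAPP 2 and 0.733 and 0.585 CPM in hIAPP 1 and 3. Lgals3, the galectin that marks damaged lysosomes, rose by 1.49 ± 0.33 with overlapping arms. Spp1, osteopontin, did not pass (0.06 ± 0.17). The list's count was 6 without WT 2 and WT 3, 7 without WT 3 and 15 without hIAPP_hCAST 3, and Cst7 and Lgals3 lost their calls without WT 3. Cst7 also lost its call without WT 1 or hCAST 1, and Gpnmb lost its call without WT 2 and WT 3.

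Complement genes, the innate opsonins and their receptors, were higher in 6 and lower in 0 of 15, and C1qa, C1qb and C1qc are also in the macrophage list. The anaphylatoxin receptors C3ar1 (1.52 ± 0.22) and C5ar1 (1.65 ± 0.25) and the C1q chains C1qc (1.30 ± 0.18) and C1qb (1.13 ± 0.18) separated the arms. The third C1q chain, C1qa, was at 89.2 to 130 CPM with and 46.4 to 92.8 CPM without human IAPP and did not pass (0.45 ± 0.13, adjusted p = 0.052). On leaving out any of WT 1, WT 3, hCAST 1, hCAST 2, hIAPP 1, 2 or 3 or hIAPP_hCAST 2, 4 complement genes were higher. The count was 4 without WT 2 and WT 3 and 10 without hIAPP_hCAST 3. Only 1 of 15 interleukin-1 and inflammasome genes passed, the pattern receptor Tlr2 at 25.4 to 31.8 CPM with and 21.0 to 24.8 CPM without (0.40 ± 0.07). Il1b, the cytokine itself, was at 0.712 to 1.96 CPM with and 0.805 to 4.20 CPM without human IAPP (-0.34 ± 0.38, adjusted p = 0.622). Of 13 chemokine genes and receptors, Ccl6 rose (1.33 ± 0.30) and Ccr1, a receptor of monocytes, fell (-1.33 ± 0.26) from 1.99 to 2.73 CPM down to 0.494 to 1.39 CPM, and Ccl6 lost its call without WT 2 and WT 3. None of 20 genes of the interferon response and class I antigen presentation passed with all libraries. Without hIAPP_hCAST 3, 3 were higher, as were 1247 of all 15611 genes tested there. In a list of lymphocyte genes, of which 5 of 17 were expressed enough to be tested, Cd4 and the B cell receptor chain Cd79a (0.71 ± 0.19) were higher, and Cd79a lost its call on leaving out any of 9 single libraries.

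Class II antigen presentation genes included 3 falls. The class II beta chain H2-Ab1 was at 14.9, 20 and 31.8 CPM (lowest, median, highest) with human IAPP and at 41.9, 49.3 and 55.2 CPM without (-1.20 ± 0.14, adjusted p = 0.000603). The alpha chain H2-Aa fell by 1.28 on the log2 scale (SE 0.18) and the invariant chain Cd74 by 1.21 (SE 0.16), in each case with a small overlap of arms. Ciita, the transactivator of these genes, did not pass (-0.79 ± 0.24, adjusted p = 0.0558). Ctss, the cathepsin that trims the invariant chain, rose from 30.7 to 36.8 CPM up to 50.6 to 122 CPM (1.22 ± 0.17) and is also a member of the macrophage list. In all, 1 of 9 tested members rose and 3 fell, and the count of falls was 3 without WT 2 and WT 3 and 4 without hIAPP_hCAST 3. Summed, the list gave 131 to 252 CPM with and 196 to 305 CPM without human IAPP. The 2 ranges overlapped, and within the human IAPP group hIAPP_hCAST 3 was lowest in the summed level of both the class II and the macrophage list.

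Promoters of 4 immune genes are shown, of which Ctss, C1qc and Bcl2a1b were called higher and H2-Aa lower. They were picked, with their values known, from called genes whose windows hold the letters searched. PU.1, the transcription factor of the macrophage lineage, binds purine-rich sites around GAGGAAGT. On either strand these letters were found in 12.8% of the 39 promoter windows of the macrophage lists (5 of 32 genes), in 4.33% of the 623 windows of genes called higher, in 3.05% of the 492 of genes called lower and in 2.89% of all 15344 windows of tested genes with a RefSeq promoter. The Y box of class II promoters, bound by NF-Y, carries CTGATTGG. These letters were found in 2 of 6 windows of the class II list (33.3%), in 4.33% of windows of genes called higher, in 4.27% of those called lower and in 5.25% of all windows. The windows of Capn10, Eng and Nlrp1b also hold GAGGAAGT, and none of these 3 genes was called. The windows run 5′ to 3′ from 250 bases before the start to 50 after it, from RefSeq GRCm38.p6. Capitals mark GAGGAAGT or its reverse complement in Ctss at chr3:95526536-95526835 (forward strand), C1qc at chr4:136892865-136893164 (reverse) and Bcl2a1b at chr9:89199023-89199322 (forward), and CTGATTGG in H2-Aa at chr17:34287774-34288073 (reverse):

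Ctss: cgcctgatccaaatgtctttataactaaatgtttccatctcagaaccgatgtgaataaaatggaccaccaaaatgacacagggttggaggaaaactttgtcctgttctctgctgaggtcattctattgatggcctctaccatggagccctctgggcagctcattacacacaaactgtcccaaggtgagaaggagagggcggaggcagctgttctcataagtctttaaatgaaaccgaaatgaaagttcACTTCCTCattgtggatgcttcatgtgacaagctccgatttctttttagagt
C1qc: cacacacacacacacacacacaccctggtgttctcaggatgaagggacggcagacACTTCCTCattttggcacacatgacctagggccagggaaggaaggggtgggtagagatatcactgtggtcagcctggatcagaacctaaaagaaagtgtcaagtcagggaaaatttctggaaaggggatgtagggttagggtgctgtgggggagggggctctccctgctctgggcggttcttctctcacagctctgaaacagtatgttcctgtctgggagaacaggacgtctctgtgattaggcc
Bcl2a1b: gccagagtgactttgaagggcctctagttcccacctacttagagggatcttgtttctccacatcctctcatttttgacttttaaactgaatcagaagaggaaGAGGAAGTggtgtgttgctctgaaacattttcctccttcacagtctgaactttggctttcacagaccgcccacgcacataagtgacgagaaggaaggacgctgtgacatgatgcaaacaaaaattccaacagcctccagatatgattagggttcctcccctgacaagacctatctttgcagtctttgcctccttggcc
H2-Aa: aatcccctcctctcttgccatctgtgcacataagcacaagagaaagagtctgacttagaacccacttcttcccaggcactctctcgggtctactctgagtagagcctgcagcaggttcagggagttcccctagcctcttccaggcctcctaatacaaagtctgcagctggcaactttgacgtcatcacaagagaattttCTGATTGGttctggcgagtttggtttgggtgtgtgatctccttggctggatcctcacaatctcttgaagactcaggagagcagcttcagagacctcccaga

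Matrix and mural cell genes were higher in part. Of 13 markers of stellate cells and pericytes, the contractile cells that wrap islet capillaries, 8 were higher and 0 lower (median 0.53), led by Notch3 (0.78 ± 0.13), the PDGF receptor Pdgfrb (0.89 ± 0.16), Thy1 (0.87 ± 0.19), the potassium channel subunits Kcnj8 (1.05 ± 0.24) and Abcc9 (0.53 ± 0.13), and Rgs5 (0.55 ± 0.12). The arms overlapped in each of these genes. Of 23 collagen and matrix genes, 4 were higher and 0 lower, although 22 of the 23 had a positive difference. These were fibronectin Fn1 (1.70 ± 0.33), the collagen crosslinker Lox (1.73 ± 0.43), fibrillin Fbn1 (1.0 ± 0.25) and the basement membrane collagen Col4a1 (0.54 ± 0.14). Summed matrix genes gave 2588 to 3194 CPM in the 3 hIAPP libraries, 1992, 1919 and 1047 CPM in hIAPP_hCAST 1 to 3 and 1106 to 1890 CPM in the 6 without human IAPP. Without WT 2 and WT 3 the counts fell to 1 stellate and 0 matrix genes, and without hIAPP_hCAST 3 they were 9 and 13. Leaving out WT 1 gave 3 and 1. The stellate count was 5 without WT 3, hCAST 2, hIAPP 1 or hIAPP_hCAST 2. The matrix count was 7 without hCAST 3 and 1 or 2 on leaving out any other library, and Lox, Fbn1 and Col4a1 each lost their call on leaving out any of 8 to 10 single libraries. Acinar genes, which share the exocrine tissue around islets with stellate cells, were all positive but 0 of 25 passed (median 0.65). The summed acinar level was 11678 to 171237 CPM with and 19311 to 115080 CPM without human IAPP. With the acinar level as a covariate 4 matrix and 8 stellate genes were called higher, but Col4a1 lost its call. That model called 860 of all 15421 tested genes higher, against 631 without the covariate. Of the other cell type lists, 2 of 12 Schwann and glial genes were higher (Egr2, 1.59 ± 0.32, and Ngfr, 0.89 ± 0.19), rising to 9 without hIAPP_hCAST 3, and 1 of 15 endothelial genes was lower (Emcn, -0.30 ± 0.07). Emcn lost its call without WT 3, without hCAST 1, and with scaling by library size alone, and both Emcn and Ngfr lost theirs without WT 2 and WT 3.

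**Figure D2:**
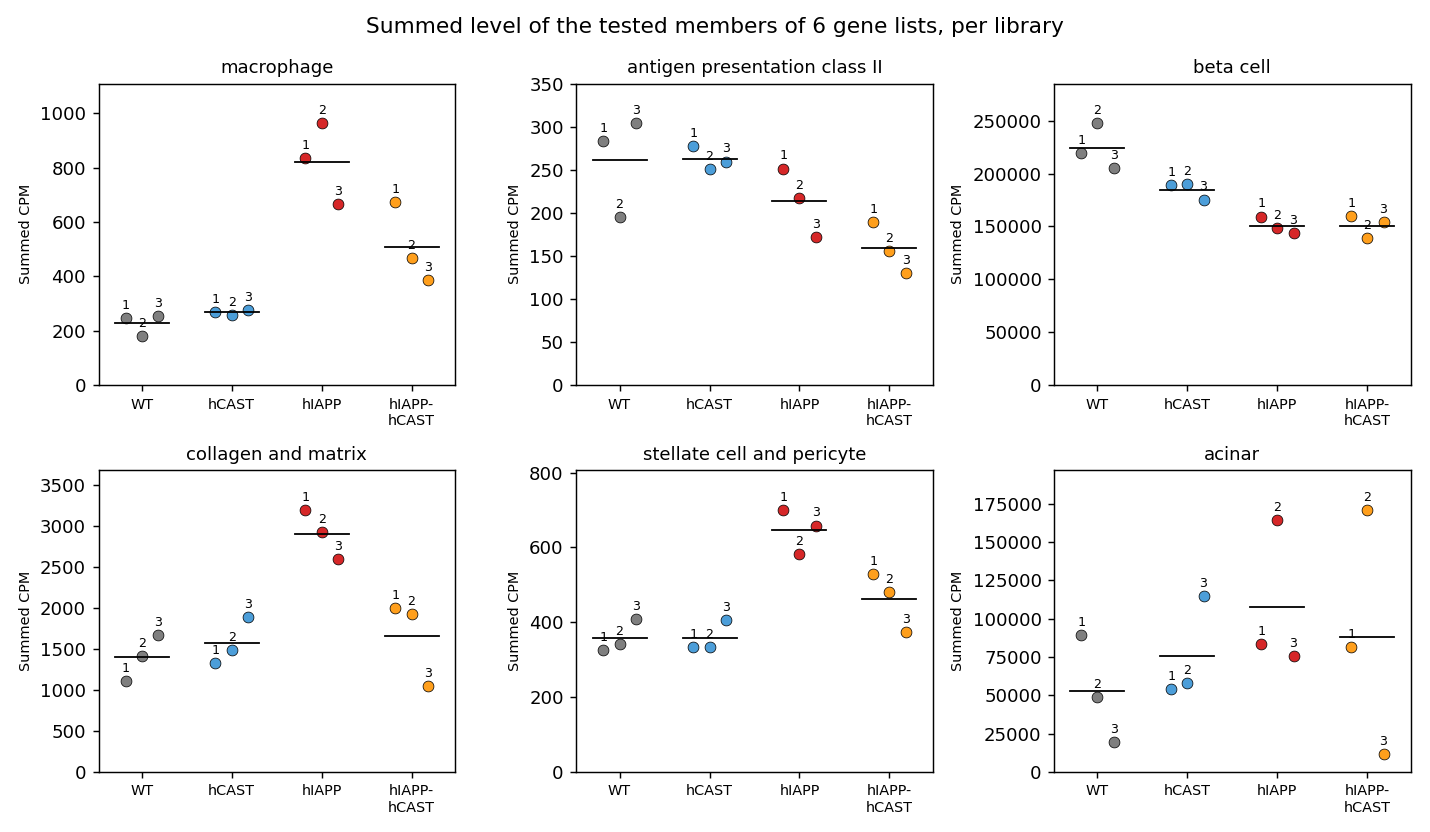
Summed CPM of the tested members of 6 lists, 1 point per library with its replicate number, by group (horizontal axis), with the group mean as a bar and each vertical axis from 0. Macrophage levels are 386 or more with human IAPP and 276 or less without, beta cell levels are 159593 or less with it and 175418 or more without, and the acinar panel shows hIAPP_hCAST 3 as the lowest library.

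Genes of beta cell identity and function were lower. Of 30 tested beta cell genes, 17 fell, 1 rose and 12 did not pass, with a median of -0.33. Their summed level was 138567 to 159593 CPM with human IAPP and 175418 to 247833 CPM without. Ins2 was at 47412, 53688 and 57967 CPM (lowest, median, highest) with and 63357, 76748 and 95554 CPM without (-0.56 ± 0.08, adjusted p = 0.00141), and Ins1 fell by 0.43 on the log2 scale (SE 0.08). For both insulin genes the arms did not overlap. Ucn3, the urocortin that marks mature beta cells, was at 301, 339 and 363 CPM with and 492, 593 and 688 CPM without human IAPP (-0.82 ± 0.07). Its p was the smallest of the list and among the 5 smallest of all genes.

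Glucose handling and incretin sensing were among the genes that fell. Slc2a2, the GLUT2 glucose transporter, was at 460, 629 and 891 CPM with human IAPP and 1050, 1256 and 1421 CPM without (-1.0 ± 0.14). G6pc2, the islet glucose-6-phosphatase subunit that opposes glucokinase, fell by 0.61 (SE 0.11), the GLP-1 receptor Glp1r by 0.64 (SE 0.12) and Trpm5, a cation channel that supports glucose-induced calcium oscillations, by 1.44 (SE 0.18). Nnat, neuronatin, which aids signal peptide cleavage of proinsulin, fell by 1.24 (SE 0.17), and Ero1lb, the islet oxidase of disulfide formation, by 0.70 (SE 0.10). Smaller falls were seen in the transcription factor Pdx1 (-0.32 ± 0.08), in Foxa2 (-0.27 ± 0.07), in Nkx6-1 (-0.27 ± 0.08) and in the zinc transporter Slc30a8 (-0.42 ± 0.11), and each of these 4 lost its call on leaving out any of 4 to 8 single libraries. Mafa, a driver of insulin transcription, did not pass (-0.54 ± 0.26, adjusted p = 0.243) and neither did the KATP channel subunit Abcc8 (-0.04 ± 0.09). The vesicular nucleotide transporter Slc17a9 was the exception that rose, at 11.9 to 14.4 CPM with and 8.78 to 11.3 CPM without (0.34 ± 0.08), a call lost on leaving out any of 5 single libraries. The count of falls was 11 without WT 2 and WT 3 together and on leaving out WT 1, WT 3 or hIAPP 2, 12 with scaling by library size alone and 20 without hIAPP_hCAST 3. On the deposited FPKM scale, which keeps ribosomal reads in its totals, the insulin genes, Ucn3, Pdx1, Foxa2, Nkx6-1, Slc30a8, G6pc2, Glp1r and Ero1lb had positive differences, on a scale where the median difference of all genes was 0.56.

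Mouse Iapp itself was at 32617 to 36040 CPM with human IAPP and 33320 to 62226 CPM without, and it did not pass (-0.19 ± 0.13, adjusted p = 0.424). The high value was that of WT 2, the shallowest library. Glucagon (Gcg, 0.07 ± 0.06), somatostatin (Sst, -0.17 ± 0.08), pancreatic polypeptide (Ppy, -0.01 ± 0.22) and mouse calpastatin (Cast, -0.02 ± 0.05) did not pass either. The sources used here did not state whether transgene reads can be counted on Iapp or Cast. Among 15 alpha cell genes 2 rose and 2 fell. The vitamin D binding protein Gc rose (0.62 ± 0.11), while the amino acid transporter Slc7a2 (-0.51 ± 0.11) and the convertase Pcsk2 (-0.24 ± 0.07) fell. Hhex, the delta cell transcription factor, was the sole change among 12 delta and PP cell genes (-0.43 ± 0.10). Pcsk2 lost its call on leaving out any of 8 single libraries, and Slc7a2 and Hhex lost theirs without WT 2 and WT 3.

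Secretory granule genes changed less. Of 22, 5 fell and 1 rose (median -0.10). Chromogranin A (Chga) went from 13612 to 17284 CPM down to 9669 to 13448 CPM (-0.45 ± 0.09), and the proinsulin convertase Pcsk1 fell by 0.44 (SE 0.10). The synaptotagmin relative Syt13 (-0.31 ± 0.07), complexin Cplx2 (-0.31 ± 0.08) and Pcsk2 were the other falls. Vgf, a granule protein and peptide precursor, rose by 0.60 ± 0.14, a call lost without WT 1 or WT 3. The falls numbered 2 without WT 2 and WT 3, with scaling by library size alone, and on leaving out WT 1, WT 3, hCAST 1, hIAPP 2 or hIAPP 3. They numbered 3 without hCAST 2, hIAPP 1 or hIAPP_hCAST 2. In the list of beta cell channels and signalling genes, 4 of 23 fell, namely Trpm5, Glp1r, the calcium channel Cacna1d (-0.26 ± 0.07) and the adrenergic receptor Adra2a (-0.32 ± 0.09), and the adenylyl cyclase Adcy5 rose (0.60 ± 0.13), a call lost without WT 1. The falls numbered 2 on leaving out any WT or hIAPP library or hIAPP_hCAST 2, and Cacna1d and Adra2a each lost their call on leaving out any of 9 or 10 single libraries.

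The 15 largest falls included genes of several kinds, and bulk islet RNA does not show in which cells they fell. Npy, neuropeptide Y, an inhibitor of insulin secretion, was at 11.2, 15.1 and 28.0 CPM with human IAPP and at 31.6, 52.7 and 121 CPM without (-1.80 ± 0.34, adjusted p = 0.015). The serine protease Prss53 was at 260 to 368 CPM with and 496 to 665 CPM without (-0.89 ± 0.09). Slc14a2, a urea transporter, fell by 1.62 (SE 0.26), the mucin-like Fcgbp by 1.54 (SE 0.23), Adam32 by 1.31 (SE 0.21), the unconventional myosin Myo3a by 1.36 (SE 0.29) and Epb4.1l4a by 1.0 (SE 0.15). Albumin (Alb), at 2.72 to 5.02 CPM without human IAPP, fell by 1.52 (SE 0.25). Cftr, the chloride channel of duct cells, fell by 1.70 (SE 0.39) from at most 1.88 CPM and lost its call without WT 1, while the duct keratin Krt7 had a difference of 0.23 ± 0.06 that passed with all libraries and lost its call on leaving out any of 8 single libraries. The other 14 of the 15 falls kept their calls whichever single library was left out. The rule that chose these genes, called and without overlap of the arms, favours such stability.

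**Figure D3:**
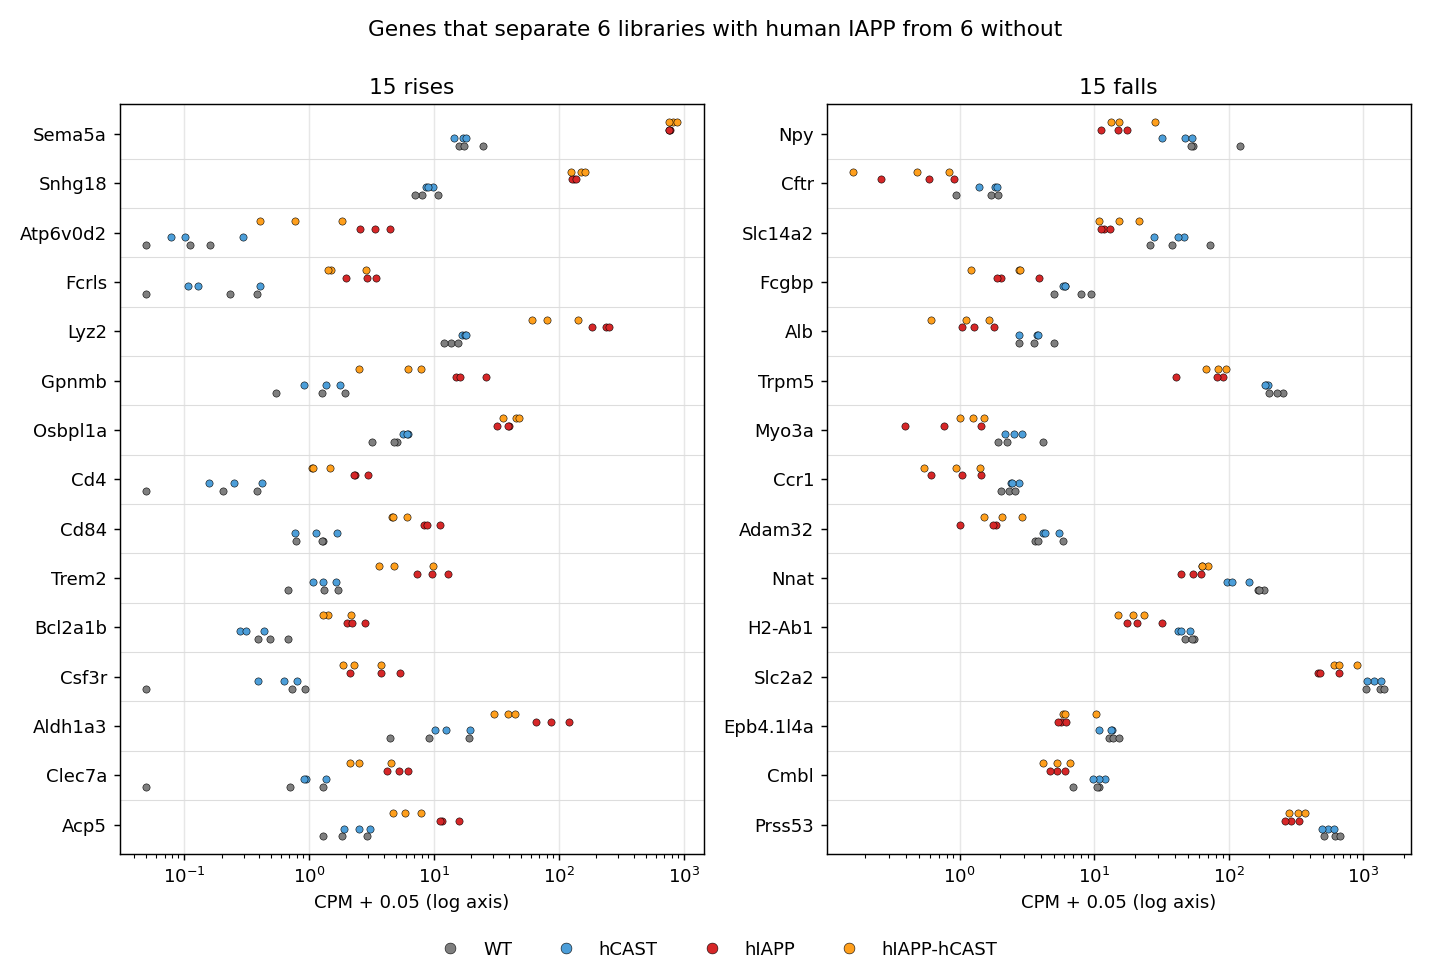
CPM + 0.05 on a log axis (horizontal) of the 15 named rises (left) and 15 named falls (right), 1 point per library, coloured by group. In every row the 6 libraries with human IAPP (red, orange) lie on one side of the 6 without (grey, blue), a property required by the rule that chose the genes. Sema5a lies at 757 or more with and at 24.5 or less without human IAPP.

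Genes of progenitors and of dedifferentiating beta cells included 4 rises and 0 falls of 14. Aldh1a3, a retinaldehyde dehydrogenase known as a marker of failing beta cells, was at 30.2, 55.0 and 122 CPM (lowest, median, highest) with human IAPP and at 4.39, 11.3 and 19.6 CPM without (2.03 ± 0.35, adjusted p = 0.0089). Serpina7, the thyroxine-binding globulin, rose by 1.28 ± 0.21, and the tetraspanin Cd81, a marker of immature and stressed beta cells, by 0.48 ± 0.06 from 113 to 151 CPM up to 172 to 195 CPM. Vgf is also a member. The endocrine progenitor factor Neurog3 did not pass (0.16 ± 0.16). The list kept 3 rises without WT 2 and WT 3 and had 5 without hIAPP_hCAST 3. In a list of genes normally kept low in beta cells 0 of 20 passed. Without hIAPP_hCAST 3, 9 were higher, as were 1247 of all 15611 genes tested there.

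In each of the following lists of stress, cell death and cell cycle genes, 0 to 4 members rose and 0 to 2 fell. Of 30 genes of the unfolded protein response, Ppp1r15a (GADD34, which reverses translational arrest; 0.60 ± 0.11) and the pseudokinase Trib3 (0.93 ± 0.22) rose, and the oxidases Ero1lb and Ero1l (-0.24 ± 0.06) fell. Of 22 Nrf2 and antioxidant genes, the glutathione peroxidase Gpx2 (1.21 ± 0.23), the thioredoxin Txn1 (0.29 ± 0.08), the cystine transporter Slc7a11 (0.66 ± 0.18) and the thioredoxin-binding Txnip (0.34 ± 0.10) rose. Nqo1, a classical Nrf2 target, went from 6.90 to 21.2 CPM down to 4.95 to 8.01 CPM (-1.20 ± 0.26), a call lost without WT 2 and WT 3. Of 20 heat shock genes, 0 rose and 2 fell, Hspa4l (-0.33 ± 0.08) and Ahsa1 (-0.26 ± 0.07), and neither call held without WT 1. Among immediate-early genes 3 of 22 rose, Klf6 (0.63 ± 0.12), Egr2 and Fosl2 (0.49 ± 0.12). The differences were positive in 21 of these 22 genes, with a median of 0.57. In DESeq2, 8 rose, as did 1036 of all 15421 tested genes. Of 22 p53 and cell death genes, 1 rose (Sesn2, 0.38 ± 0.10), and of 25 cell cycle genes 1 fell, the cyclin Ccnd2 of beta cell replication, from 904 to 1215 CPM down to 699 to 920 CPM (-0.46 ± 0.08). Mki67, the proliferation marker, did not pass (0.03 ± 0.18). The Nrf2 rises numbered 1 or 2 on leaving out WT 1, WT 3, hCAST 1, hCAST 2, any hIAPP library or hIAPP_hCAST 2. Without hIAPP_hCAST 3 the rises numbered 6 of the unfolded protein response and 7 immediate-early genes, and without WT 2 and WT 3 they numbered 0 and 2. Trib3, Ero1l, Txn1, Slc7a11, Txnip, Sesn2, Fosl2, Hspa4l and Ahsa1 each lost their call on leaving out at least 1 single library, and Ppp1r15a lost its call without WT 2 and WT 3.

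Lysosome genes rose in 7 of 30, with 0 falls. Ctsd, the main aspartic protease of lysosomes, was at 512, 696 and 906 CPM (lowest, median, highest) with human IAPP and 391, 440 and 469 CPM without (0.65 ± 0.11). The cathepsins Ctsb (0.43 ± 0.08), Ctsz (0.39 ± 0.09) and Ctsa (0.27 ± 0.07), the acid glucosidase Gaa (0.24 ± 0.06) and the autophagy receptor Sqstm1 (0.32 ± 0.08) also rose. Macrophages express these genes strongly, as do beta cells, and their source was not tested. The count was 2 without WT 2 and WT 3, 3 without WT 3, 4 without hIAPP 2 or hIAPP 3 and 10 without hIAPP_hCAST 3. The promoter of Ctsd is shown because it holds 2 copies of CACGTGAC, the E-box core that the lysosomal regulator TFEB binds. These letters were found on either strand in 6 of 28 windows of the lysosome list (21.4%), in 3.70% of all windows and in 3.05% of windows of genes called higher. The window is chr7:142387778-142388077 (reverse strand, RefSeq GRCm38.p6), with both copies in capitals:

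Ctsd: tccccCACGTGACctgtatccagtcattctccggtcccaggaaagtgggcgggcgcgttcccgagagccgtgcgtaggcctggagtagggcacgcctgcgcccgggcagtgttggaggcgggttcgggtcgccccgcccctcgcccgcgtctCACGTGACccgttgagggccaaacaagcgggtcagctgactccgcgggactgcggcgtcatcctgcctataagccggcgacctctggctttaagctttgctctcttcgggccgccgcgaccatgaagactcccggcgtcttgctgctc

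Ubiquitin and proteasome genes included 2 rises of 20, the neuronal and beta cell hydrolase Uchl1 (0.57 ± 0.14) and the subunit Psma7 (0.26 ± 0.07), and both were lost without WT 1, WT 3 or hCAST 1. Among 26 glycolysis and hypoxia genes, the phosphofructokinase Pfkp rose (0.36 ± 0.06) and the pyruvate kinase Pkm fell (-0.34 ± 0.07). The HIF prolyl hydroxylase Egln3 was called higher, at 0.163 to 0.381 CPM with human IAPP. It had 26 counts in hIAPP against 1 in WT (ratio 10.5, 1.72 to 429, counting error only). Egln3 lost its call without WT 1, WT 3 or hCAST 1, which left 1 rise in the list, and without hIAPP_hCAST 3 there were 6. Of 22 cholesterol synthesis genes only the squalene synthase Fdft1 passed (0.30 ± 0.07), and it was lost without WT 1 or hCAST 2. None of 25 nuclear genes of the respiratory chain passed. Of 25 cytosolic ribosomal protein genes 0 passed, although all 25 had positive differences (median 0.15), and 5 were higher on the WT background, 5 in DESeq2 and 3 without hCAST 3. Of 12 tested genes of the calpain system, Capn5 was higher (0.38 ± 0.09), a call lost without WT 3, without hCAST 2, and without WT 2 and WT 3.

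Proteins that accompany amyloid deposits, mostly heparan sulfate proteoglycans, changed in both directions, with 5 rises and 3 falls of 19. Besides Apoe, the proteoglycans Sdc4 (0.41 ± 0.07), Gpc1 (0.37 ± 0.08), agrin (Agrn, 0.39 ± 0.09) and Gpc3 (0.51 ± 0.15) rose. Sdc2, which lies beside Sema5a, fell, as did Bace2, a beta cell protease able to cleave IAPP, at 222 to 305 CPM with and 282 to 459 CPM without (-0.62 ± 0.11). Mme, neprilysin, a peptidase able to degrade amyloid peptides, fell from a level of at most 2.43 CPM (-1.26 ± 0.33). Gpc3 and Mme each lost their call on leaving out any of 10 and 7 single libraries, and Agrn without WT 1. There were 9 rises without hIAPP_hCAST 3, 3 without WT 1 and 2 without WT 2 and WT 3.

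**Figure D4:**
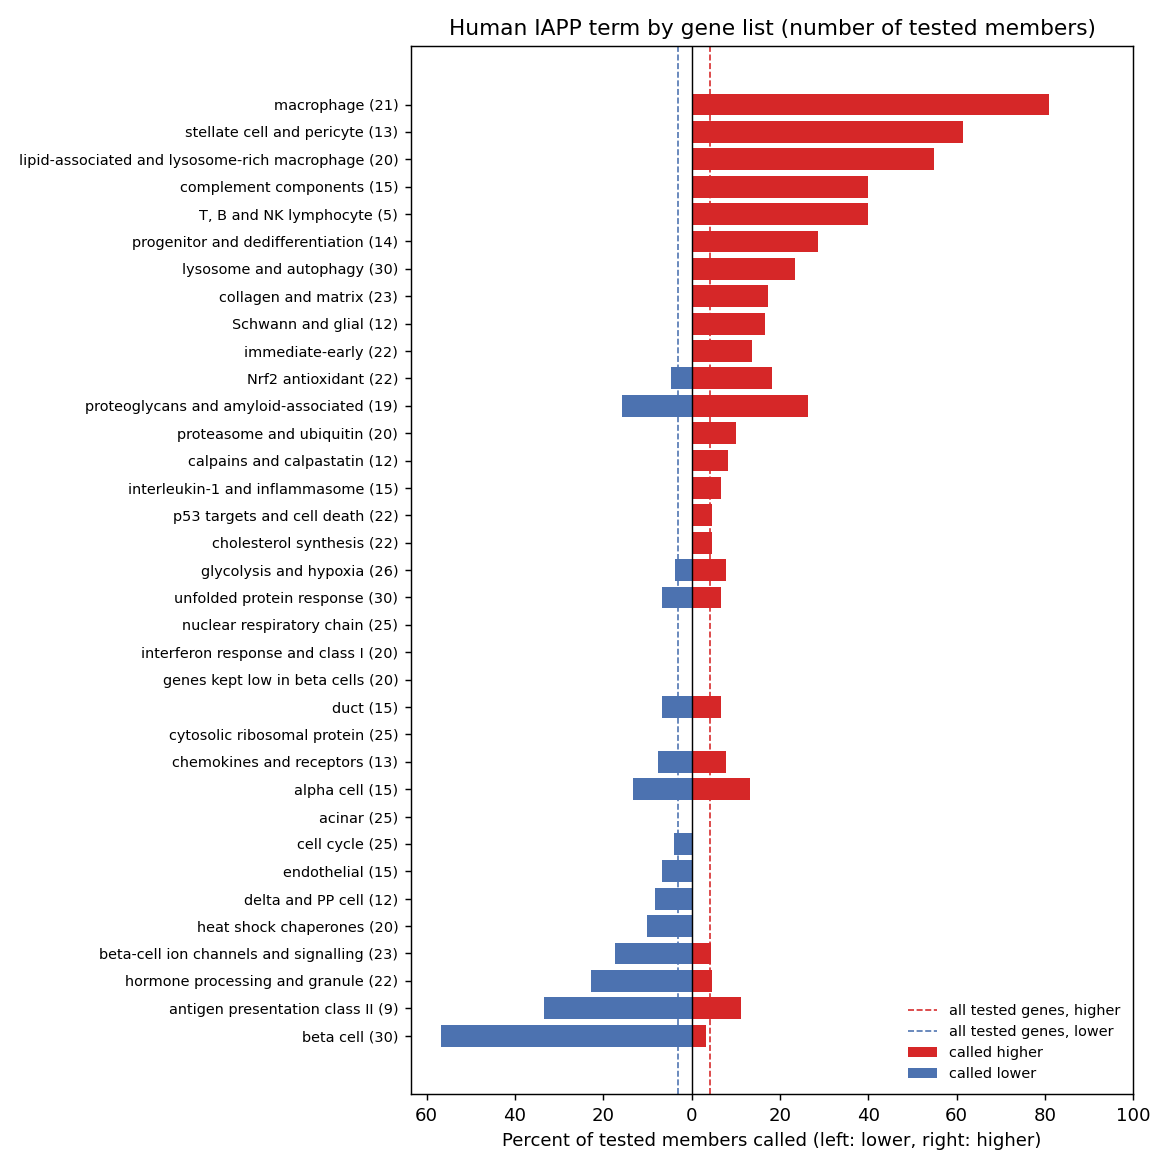
Percent of the tested members of each gene list called higher (red, to the right) or lower (blue, to the left) by the human IAPP term, with the number of tested members in brackets, for lists of at least 5 tested members. Dashed lines give the share of all tested genes, 4.09% higher and 3.11% lower. The macrophage list reaches furthest to the right with 17 of 21, and the beta cell list furthest to the left with 17 of 30.

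The term averages over both calpastatin backgrounds. They were also taken apart in another model of the same 12 libraries, with a coefficient for each group. Human IAPP on the WT background (hIAPP minus WT) changed 1343 genes (8.71%), 715 higher (4.64%) and 628 lower (4.07%). On the hCAST background (hIAPP_hCAST minus hCAST) it changed 65 genes (0.422%), 43 higher (0.279%) and 22 lower (0.143%). The pairs share no library. In both, 57 genes were called, all of them in the same direction, which is 4.24% of the first list and 87.7% of the second. All 1110 genes called by the term had the same sign on both backgrounds, a property that an additive term favours, as did 67.6% of all tested genes. Their median absolute log2 difference was 0.62 on the WT and 0.38 on the hCAST background, and 944 of them were larger on the WT background. By list, 18 macrophage genes were higher on the WT and 3 on the hCAST background (list medians 1.59 and 0.83). In the same order, 11 and 2 lipid-associated, 9 and 0 complement and 14 and 0 matrix genes were higher. Stellate and lysosome genes each gave 8 and 0 rises. Beta cell falls numbered 19 and 2 (list medians -0.48 and -0.19), and class II falls 3 and 2. Across all 15421 genes the differences on the 2 backgrounds had a Pearson r of 0.517 and a Spearman rho of 0.474, given as a description since genes are not independent.

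Whether the human IAPP difference itself depended on the calpastatin transgene was tested by the interaction. With edgeR 0 genes passed, with a smallest adjusted p of 0.498, and 1156 had an unadjusted p below 0.05. DESeq2 called 24 genes, and leaving out hIAPP_hCAST 1 gave 2 in edgeR. The 6 genes with the smallest interaction p were Sdc1, Loxl1, Ecm1, Zfp871, Fn1 and Ikzf2, all with an adjusted p of 0.498. Fn1 was at 23.5, 23.6 and 19.8 CPM in hIAPP 1 to 3 and at 10.3, 9.87 and 5.81 CPM in hIAPP_hCAST 1 to 3. In WT 1 to 3 it was at 2.67, 1.88 and 4.53 CPM, and in hCAST 1 to 3 at 3.88, 3.90 and 5.50 CPM. The plasma membrane proteoglycan Sdc1 was at 13.9, 14.2 and 15.1 CPM in hIAPP and at 7.34 to 9.56 CPM in hIAPP_hCAST, close to its 5.33 to 8.89 CPM without human IAPP. The crosslinking enzyme Loxl1 and the matrix protein Ecm1 had the same order, at 11.5 to 13.9 and 7.80 to 8.59 CPM in hIAPP and 3.72 to 6.51 and 3.61 to 5.56 CPM in hIAPP_hCAST. That 0 genes passed does not show that the backgrounds respond alike.

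The count of 65 rested on the libraries used. It was 239 without hIAPP_hCAST 3, 29 without hCAST 1 and 19 without hCAST 2. On the WT background 185 genes were called without WT 2 and WT 3, and leaving out 1 library gave 885 without WT 1, 688 without WT 3, 744, 589 and 592 without hIAPP 1, 2 and 3, and 2042 without hIAPP_hCAST 3. Sema5a differed by 5.43 on the WT and 5.63 on the hCAST background, and Snhg18 by 4.07 and 4.0. Lyz2 differed by 4.0 and 2.43, with 239, 252 and 185 CPM in hIAPP 1 to 3 and 142, 80.5 and 60.7 CPM in hIAPP_hCAST 1 to 3. Its interaction was -1.57 ± 0.40 with an adjusted p of 0.541. Aldh1a3 differed by 2.74 and 1.44 (interaction adjusted p = 0.653), and H2-Ab1 by -1.14 and -1.26 (0.957).

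**Figure D5:**
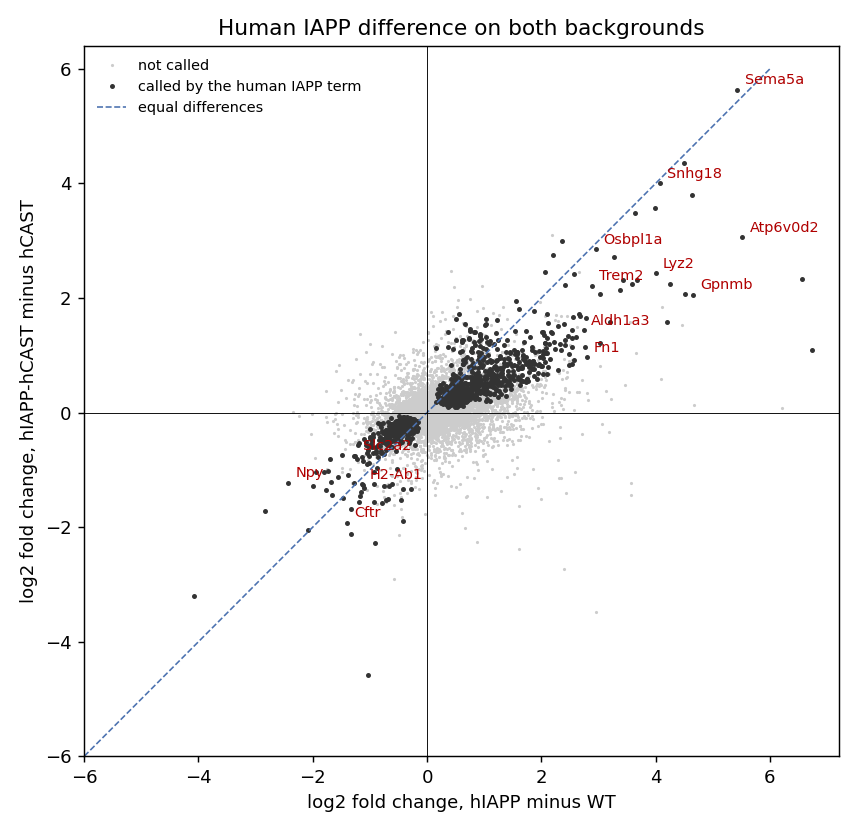
Log2 fold change of human IAPP on the hCAST background (vertical axis, hIAPP_hCAST minus hCAST) against that on the WT background (horizontal axis, hIAPP minus WT), 1 point per tested gene, dark where called by the human IAPP term. Sema5a and Snhg18 lie near the dashed line of equal differences, while Lyz2, Gpnmb, Atp6v0d2, Aldh1a3 and Fn1 lie below it, and no interaction passed in edgeR.

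The rodent IAPP transgene gave a reference for the presence of an extra IAPP transgene. The title numbers of the rIAPP mice form a further range, apart from those of all other groups. What goes with those numbers, or with the mouse line, therefore cannot be told apart from the rodent transgene or from the human-minus-rodent difference. In a model over all 15 libraries, the human and the rodent term were contrasted directly, and 1289 genes (8.27% of 15595 tested) were higher and 950 (6.09%) lower with human than with rodent IAPP. Of 21 macrophage genes, 18 were higher with human than with rodent IAPP and 0 lower. The rodent term by itself called 0 of them higher and 2 lower, against a background of 9.43% higher and 11.5% lower, while the human term in the same model called 17 higher and 0 lower against 5.41% and 4.28% of all genes. Lyz2 was at 16.2, 14.1 and 19.7 CPM in rIAPP 1 to 3, within or next to the range of the 6 libraries without an IAPP transgene, and the human-minus-rodent difference was 3.47 ± 0.42 (adjusted p = 0.000135). Trem2 differed by 2.92 ± 0.37 and Cd84 by 2.94 ± 0.31. Class II genes were lower with human than with rodent IAPP in 5 of 9 and higher in 2. H2-Ab1, at 55.4, 60 and 59.5 CPM in rIAPP, differed by -1.34 ± 0.17. Higher and lower genes in this contrast numbered 10 and 1 of 20 lipid-associated and 5 and 3 of 15 complement genes. They numbered 2 and 0 of 23 matrix, 3 and 1 of 13 stellate and 0 and 3 of 13 chemokine genes. The rodent term by itself called 2 lipid-associated, 5 complement, 3 matrix, 1 stellate and 4 chemokine genes higher.

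Beta cell genes had another order. The rodent term called 25 of 30 lower, and 19 of 30 were higher with human than with rodent IAPP. Ins2 was at 38286, 32073 and 37187 CPM in rIAPP 1 to 3, below all 12 other libraries, and the human-minus-rodent difference was 0.69 ± 0.11 (adjusted p = 0.000311). Slc2a2 was at 235, 160 and 358 CPM, Ucn3 at 199, 171 and 263 CPM and Prss53 at 125, 83.9 and 136 CPM in rIAPP, each lower than with human IAPP. Of the 15 named falls, 10 had all 3 rIAPP libraries below the 6 libraries without an IAPP transgene, 4 overlapped them and 1 (H2-Ab1) lay above. Of the 15 named rises, 3 had them above, 1 below and 11 overlapping. The rule that chose these genes required those 6 libraries to lie apart from the libraries with human IAPP, so these counts are no test. The share of all genes with rIAPP wholly below or above was not counted, and the rodent term called 11.5% of all genes lower and 9.43% higher. Lysosome genes were higher with human than with rodent IAPP in 13 of 30 and lower in 0. Acinar genes held 12.5% to 16.6% of the counts in rIAPP, more than in most other libraries, and rIAPP 2 had 67.7% of its counts in the 3 genes left out of the scaling. The part of either in these differences was not tested.

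Sema5a, Snhg18 and Osbpl1a differed among themselves in the same contrast. Sema5a was at 7.49, 5.76 and 8.35 CPM in rIAPP, below the other groups (human minus rodent 6.73 ± 0.15). Snhg18 was at 12.7, 14.9 and 12.1 CPM in rIAPP (3.34 ± 0.11). Osbpl1a was at 39.4, 40.1 and 37.0 CPM in rIAPP, as high as with human IAPP, and the difference between the transgenes was -0.08 ± 0.10 (adjusted p = 0.712). Aldh1a3, at 26.3, 53 and 33.8 CPM in rIAPP, lay above all 6 libraries without an IAPP transgene, and its human-minus-rodent difference did not pass (1.07 ± 0.42, adjusted p = 0.124).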

How the data were processed

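Bulk islet RNA was extracted with RNeasy Mini and libraries were made with TruSeq Ribo-Zero and NuGEN Ovation kits, per the labels' protocols. The authors deposited raw read counts per gene symbol and an FPKM table. Reads were aligned with STAR and counted with HTSeq on GRCm38 (mm10), per the submitters' processing notes. For versions, annotation and strand setting, the label fields name nothing: not given in the sources used here. The FPKM values deposited by the authors are scaled by gene length and by library totals that keep the ribosomal reads.

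Total counts per library were 28287011 to 40191501, and low depth in WT 2 and WT 3 limits precision there. The table had 24060 entries. After leaving out Rn45s, Lars2 and Mir6236, TMM factors and edgeR 4.0.16 (R 4.3.3) quasi-likelihood tests were used, with filterByExpr over the 4 groups, 1 term for human IAPP, 1 for human CAST and Benjamini-Hochberg adjustment over 15421 genes. CPM values use the same scaling. Values for the 3 rIAPP libraries come from a fit over all 15 libraries, added after seeing the data. DESeq2 1.42.0 and limma 3.58.1 served as alternatives. Python 3.11.15, pandas 2.3.3, SciPy 1.17.1 and matplotlib 3.10.9 handled positions, promoters and plots, with RefSeq GRCm38.p6 matched for 15361 genes. On simulated data, 83% of 100 genes changed by 1 and 97% of 100 genes changed by 2 on the log2 scale were recovered among 15367 tested, with 5 false calls. The simulation drew genes independently and held no library-wide differences such as those in acinar share. Recovery and false calls under such differences were not tested.

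The rule for named genes took the islet hormones with Iapp and Cast, then the 15 largest rises and 15 largest falls that were called, averaged at least 1 CPM and showed no overlap of the arms (predicted genes and immune receptor segments left out), the 5 smallest p, up to 6 members with the smallest p per list or members against its direction, and the 6 smallest interaction p. Some list members that did not pass were also named, as were genes around Sema5a, a choice made with their values in view. Values of some list members are not reported here, though the list counts include them. The lists and the comparison were chosen with earlier results of these data known. Libraries of 1 group differed by more than counting noise, and no 2 were treated as the same sample. Alternatives covered scaling, filters, tools, designs, libraries left out and FPKM.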

Additional observations from a re-analysis of the deposited data

Results flagged for a closer look

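In 7 of 78 checks of the highest or lowest library among 6, 1 library stood apart from the other 5, where chance alone marks about 1 in 20. With human IAPP, hIAPP 2 had 7.63% of its counts in Rn45s, Lars2 and Mir6236 against 0.322% to 1.28% in the other 5. The summed Nrf2 and antioxidant level was 2896 CPM in hIAPP_hCAST 2 against 2143 to 2419 CPM in the others with human IAPP, and 3340 CPM in WT 2 against 2288 to 2637 CPM in the others without it. The summed cell cycle level was 1350 CPM in hIAPP_hCAST 1 against 1169 to 1219 CPM. Among libraries without human IAPP, hCAST 3 had 365 CPM of complement genes against 256 to 286 CPM, WT 2 had 5813 CPM of heat shock genes against 3886 to 4363 CPM, and WT 2 had 180 CPM of macrophage genes against 247 to 276 CPM. WT 2 is the library with the fewest counts outside the 3 ribosomal-rich genes.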

How the results depend on the processing

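The count of 1110 genes was between 999 and 1174 under other scalings, with the 3 ribosomal-rich genes kept in, under both filters and without the calpastatin term. It was 1566 with the acinar covariate, 1596 for the mean of both group differences and 1510 in the fit over all 15 libraries. It was 1896 with DESeq2, 2333 with sample weights in limma, 1687 from WT and hIAPP alone, 9 from hCAST and hIAPP_hCAST alone, 414 without WT 2 and WT 3, 313 on log2(FPKM + 1), 151 on log2(FPKM + 0.1) and 633 on FPKM rescaled without the 3 genes, an alternative added after seeing the data. Leaving out 1 library gave 520 to 2081 for the human IAPP term, 4 to 9 for the human CAST term, 0 to 2 for the interaction, 589 to 2042 on the WT background and 19 to 239 on the hCAST background. The WT background count was 185 without WT 2 and WT 3, and DESeq2 gave 24 interaction calls. Of 131 called genes among the 149 named, 82 kept their call whichever library was left out and 70 without WT 2 and WT 3. From hCAST and hIAPP_hCAST alone, 123 of the called genes lost their call, and 19 did from WT and hIAPP alone.

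No paired analysis was possible because the replicate numbers follow accession order and the title numbers are not shared between groups. Among called genes, differences changed sign only on the deposited FPKM scale. Some genes that did not pass, Loxl1, Cd163 and Il1b among them, differed in sign between backgrounds. The FPKM totals keep the ribosomal reads of WT 2 and WT 3. On log2(FPKM + 1) the differences that changed sign were, on the log2 scale, Ins1 0.59, Ins2 0.46, Prss53 0.12, Cpq 0.36, Ucn3 0.19, Zfp871 0.48, Sdc2 0.47, Tspyl5 0.16, Laptm4b 0.56, Emcn 0.63, Slc7a2 0.44, Pcsk2 0.77, Hhex 0.29, Ero1lb 0.31, G6pc2 0.41, Glp1r 0.39, Pcsk1 0.57, Foxa2 0.69, Pdx1 0.66, Nkx6-1 0.73, Slc30a8 0.58, Chga 0.57, Syt13 0.68, Cplx2 0.67, Cacna1d 0.57, Adra2a 0.60, Ero1l 0.57, Hspa4l 0.55, Ahsa1 0.71, Ccnd2 0.54, Pkm 0.67, Bace2 0.37 and Ankrd33b 0.23. On log2(FPKM + 0.1) they were Ins1 0.59, Ins2 0.47, Prss53 0.13, Cmbl 0.043, Slc2a2 0.0064, Cpq 0.40, Ucn3 0.20, Zfp871 0.63, Sdc2 0.61, Tspyl5 0.46, Laptm4b 0.68, Emcn 0.70, Slc7a2 0.49, Pcsk2 0.78, Hhex 0.53, Ero1lb 0.32, G6pc2 0.41, Glp1r 0.40, Pcsk1 0.58, Foxa2 0.74, Pdx1 0.68, Nkx6-1 0.75, Slc30a8 0.59, Chga 0.57, Syt13 0.71, Cplx2 0.70, Cacna1d 0.73, Adra2a 0.68, Ero1l 0.74, Hspa4l 0.66, Ahsa1 0.75, Ccnd2 0.55, Pkm 0.68, Bace2 0.42 and Ankrd33b 0.40. Depth in WT 2 limits genes of low level.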
